A study of Mus musculus with 3 samples.

Results

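Focal adhesions are the sites where integrins that hold the extracellular matrix are joined, inside the cell, to actin filaments. Talin and kindlin bind the integrin tail, vinculin reinforces the link from talin to actin, and focal adhesion kinase (FAK, encoded by Ptk2) with Src passes the signal on through adaptors such as paxillin and p130Cas. In stromal cells of the bone marrow, adhesion to fibronectin through these proteins is known to bear on the choice between osteoblast and adipocyte fates. The 44 genes described here encode the cytoplasmic proteins of these sites. They were chosen by name as adaptors, kinases and scaffolds, with no integrin and no matrix gene among them, and each matched exactly 1 of the 51826 rows of the table.

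The cells were ST2, a mouse bone marrow stromal line, which is an established line and not a primary culture. All 3 libraries came from cells given a plasmid and siRNA at 30 nM together. The control library had empty vector with control siRNA, the NELL2 overexpression library had the NELL2 construct with control siRNA, and the Fn1 knockdown library had empty vector with siRNA against Fn1; the last 2 are called the NELL2 and the knockdown library. There was 1 library in each group, so each difference below lies between libraries and has no replicate check, no test and no p-value. Both comparisons use the same control library, so a control value that is off in 1 gene would move both.

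Values are FPKM, that is, fragments scaled to transcript length and to the size of the library, so that levels can be compared between genes. Depth was estimated from low values as 23000000 to 24200000 fragments a library. At this depth the 42 members that reached 1 FPKM had between 150 and 22750 estimated fragments in the control, which gives a counting error of 0.014 to 0.16 on their log2 ratios. That error covers counting only and not the spread between cultures. Nell2 was at 0.640, 326 and 1.06 FPKM in the control, NELL2 and knockdown libraries, and Fn1 was at 2802, 2489 and 137 FPKM, so both targeted genes moved as the labels say. All 10 stromal markers examined were at 7.40 FPKM or more in every library (summed 4746 to 5530 FPKM). The summed level of 6 haematopoietic markers was 3.09 to 6.18 FPKM, mostly Cd68, that of 4 endothelial markers was 1.75 to 1.97 FPKM, and that of 4 epithelial markers was at most 0.0884 FPKM, with Epcam and Krt14 listed at 0 in all 3 libraries.

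Most focal adhesion genes lay near the control, about as often as other genes did. Within 0.25 on the log2 scale were 85.7% of the 42 members with NELL2 overexpression (85.1% of all genes tested) and 71.4% after Fn1 knockdown (68.4% of all). A 2-fold cutoff was passed by 2 members, both after Fn1 knockdown, where 1.23% of all genes passed it. Vcl, which encodes vinculin, fell to 37.5% of its control level, and Lims1, which encodes the adaptor PINCH1 of the integrin-linked kinase complex, fell to 48.9%. Lims1 lies at the edge of the cutoff and is not called with a pseudocount of 5 FPKM, and Vcl summed with a gene that overlaps it was at 42.8% or 55.9% of the control, depending on the transcript lengths used. The kinases Ptk2, Src, Fyn and Csk and the integrin activators Tln1 and Fermt2 stayed within 0.25 of the control on the log2 scale in both comparisons, whereas the kinase Yes1 was outside that band in both (0.36 and -0.47). A ratio here is log2 of (FPKM + 1) over (control FPKM + 1), and a gene is called when this ratio is 1 or more in size (2-fold) and the gene reaches 1 FPKM in either library.

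**Figure D1:**
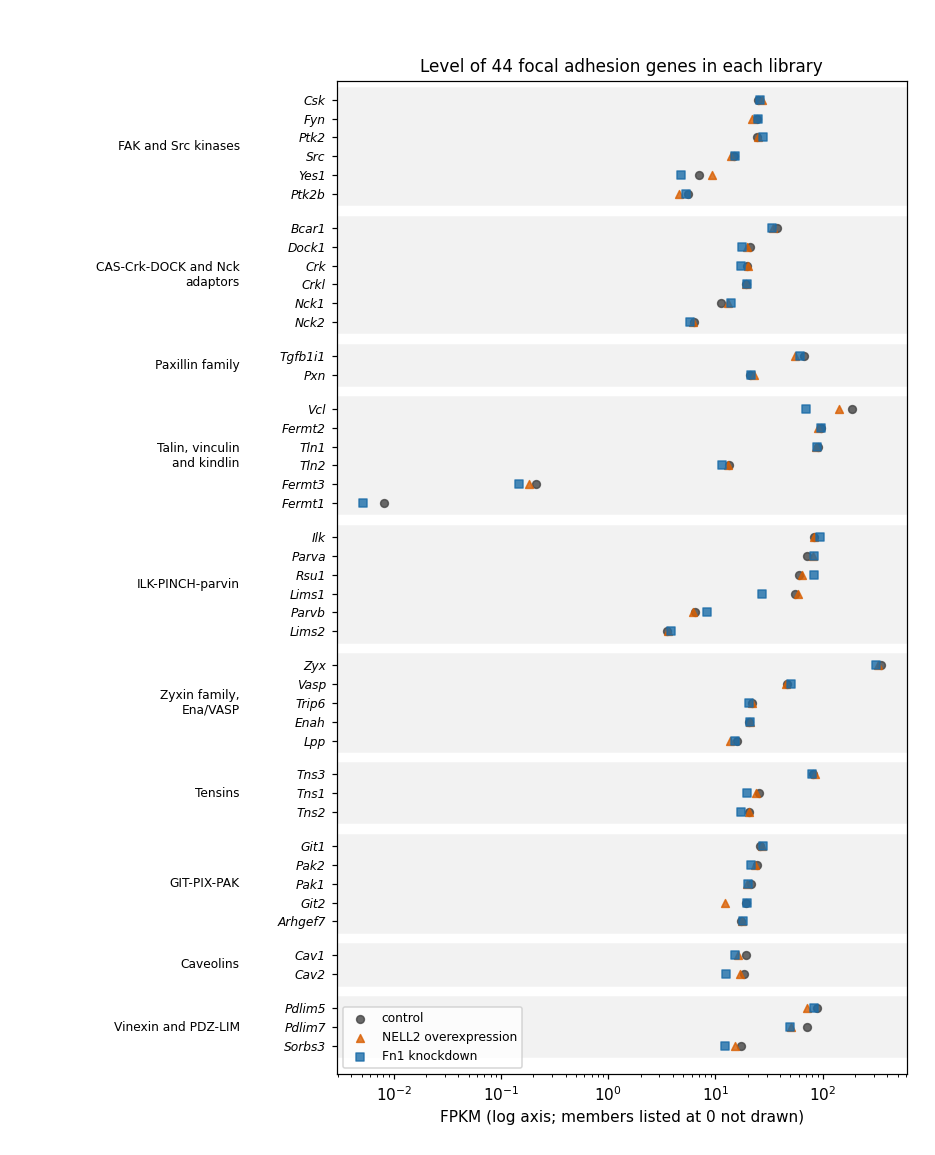
FPKM (log axis) of the 44 genes, grouped by role, with 1 point for each of the 3 libraries. For most genes the points lie on top of each other, whereas Vcl (188, 142 and 70.5 FPKM) and Lims1 (55.7, 59.0 and 27.2 FPKM) are set apart after Fn1 knockdown and Git2 (19.4, 12.2 and 19.6 FPKM) with NELL2 overexpression.

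The members spanned a wide range of levels in the control library. Zyx, which encodes zyxin, a LIM protein that gathers at stretched actin, was the highest at 350.4 FPKM. It was followed by Vcl at 188 FPKM, Fermt2 (kindlin-2) at 97.0 FPKM, Tln1 (talin-1) at 90.8 FPKM and Pdlim5, a PDZ and LIM scaffold of actin fibres, at 89.5 FPKM. The median over the 42 members at 1 FPKM or more was 21.8 FPKM. At the other end were Fermt3, the kindlin of blood cells, at 0.212 FPKM, and Fermt1, the kindlin of epithelia, at 0.00804 FPKM. In the NELL2 and knockdown libraries Fermt3 was at 0.184 and 0.148 FPKM, and Fermt1 was listed at 0 and at 0.00511 FPKM. Both stayed under 1 FPKM in every library, at about 13 and 1 estimated fragments in the control, and they were left out of the counts below for that reason.

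Within families, 1 paralog often carried most of the transcript. Fermt2 made up 99.8% of the summed FPKM of the 3 kindlins in each library. Lims1 made up 94.1% of PINCH transcripts in the control, Parva 91.8% of parvin, Zyx 90.2% of the zyxin family, Tln1 87.1% of talin and Ptk2 81.4% of the pair with Ptk2b. Other pairs were shared more evenly, with Crk at 50.9% beside Crkl, Cav1 at 50.9% beside Cav2, and Pak2 at 53.2% beside Pak1. The share of Git2 in the GIT pair was 42.8% in control cells, 31.1% in the NELL2 library and 41.3% in the knockdown library. That of Lims1 was 94.3% in the NELL2 library and 87.6% in the knockdown library, while Lims2 was at 3.50, 3.59 and 3.86 FPKM.

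NELL2 overexpression was compared with the control first. None of the 42 members was called, against 0.652% of the 12572 genes tested. At a lower cutoff of 1.5-fold, 1 member passed, Git2, which is 2.38% of the members beside 2.59% of all genes. With the filter raised to 5 FPKM, the background was 2.21%. The share of members past either cutoff was thus near or below the background. Their median log2 ratio was -0.038 (26 lower and 16 higher), beside 0.0072 over all genes tested, of which 47.7% were lower. The median size of a ratio, whatever its direction, was 0.093 in the members and 0.094 in all genes.

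After Fn1 knockdown, 2 of the 42 members were called, Vcl and Lims1, both lower. That is 4.76% of the members, with a background of 1.23% of 12574 genes. With a count of 2 the share rests on these genes alone. At 1.5-fold no further member passed, so the share stayed at 4.76% whereas the background rose to 6.24%, or 5.97% among genes at 5 FPKM or more. The median log2 ratio of the members was -0.073 (25 lower and 17 higher), beside -0.0028 over all genes, of which 50.5% were lower. The median size of a ratio was 0.14 in the members and 0.16 in all genes. Ordered from the largest fall, Vcl stood at place 23 and Lims1 at place 69 of all genes tested.

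**Figure D2:**
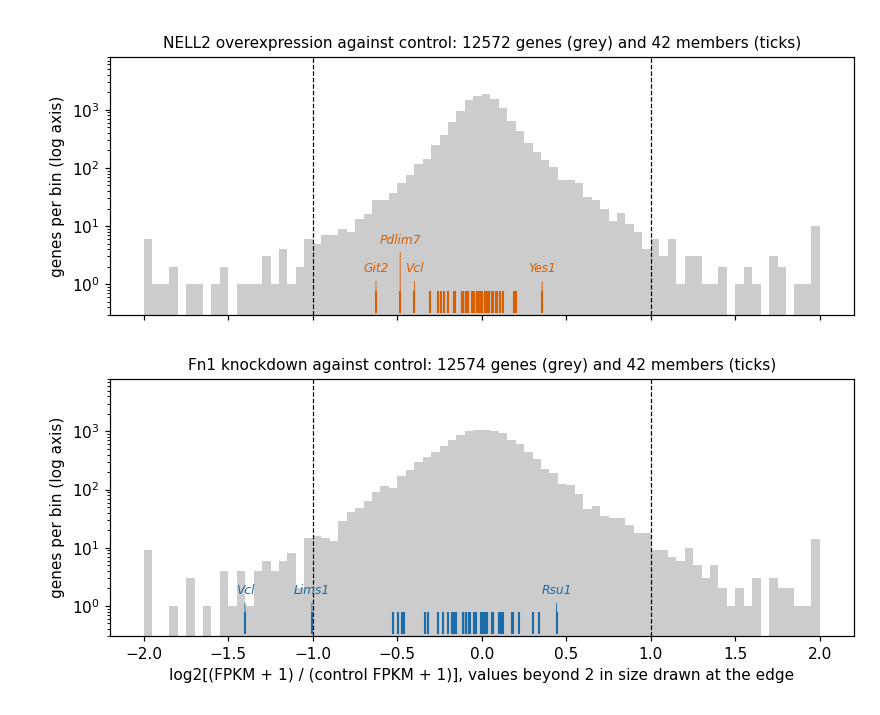
Number of genes (log axis) at each log2 ratio for all genes tested (grey) and the 42 members as ticks, for NELL2 overexpression (top) and Fn1 knockdown (bottom), with dashed lines at 2-fold. The ticks furthest out are Git2 (-0.63) with NELL2 overexpression and Vcl (-1.40) and Lims1 (-1.01) after Fn1 knockdown, and of these Vcl and Lims1 are past the dashed line.

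The FAK and Src kinases were considered next, since they carry the signal from the adhesion. FAK itself (Ptk2) was at 24.4 FPKM in control cells, 25.2 FPKM in the NELL2 library and 27.9 FPKM in the knockdown library. These levels differed from the control by 0.043 and 0.18 on the log2 scale, with counting errors of 0.040 and 0.039. Its relative Ptk2b (PYK2) was at 5.58, 4.56 and 5.26 FPKM. Src was at 15.0, 14.01 and 15.1 FPKM, Fyn at 24.5, 21.8 and 25.1 FPKM, and Csk, the kinase that restrains the Src family, at 24.8, 27.2 and 25.9 FPKM. Transcript levels say nothing of the phosphorylation of these kinases.

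Yes1, the remaining Src family kinase, varied the most among the 6 kinases. It was at 7.05 FPKM in control cells, 9.31 FPKM in the NELL2 library and 4.79 FPKM in the knockdown library, so the control lay between the other libraries. The log2 ratios were 0.36 (counting error 0.092) and -0.47 (counting error 0.11), neither of which reached 1.5-fold. The summed FPKM of Src, Fyn and Yes1 was 46.5, 45.1 and 44.9, and the share of Yes1 in it was 15.1%, 20.6% and 10.7%.

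None of the adaptors downstream of these kinases reached 1.5-fold, and all but Nck1 after knockdown and Tgfb1i1 with NELL2 overexpression (-0.26) were within 0.25 of the control. Bcar1 (p130Cas, the scaffold that Src phosphorylates) was at 37.4, 34.5 and 33.4 FPKM in the control, NELL2 and knockdown libraries, an order of libraries kept in the next sentences. Dock1, the exchange factor that activates Rac downstream of p130Cas and Crk, was at 20.9, 19.7 and 17.7 FPKM. Crk was at 19.8, 20.1 and 17.4 FPKM and its paralog Crkl at 19.1, 19.1 and 19.5 FPKM. Nck1, an SH2 and SH3 adaptor that links phosphotyrosine to actin assembly, was somewhat higher in both libraries, at 11.2, 13.1 and 14.1 FPKM with log2 ratios of 0.20 and 0.30. Nck2 was at 6.27, 6.13 and 5.83 FPKM. In the paxillin family, Pxn was at 21.1, 22.9 and 21.4 FPKM, and Tgfb1i1 (Hic-5, a paxillin relative enriched in contractile cells) was at 66.5, 55.4 and 61.6 FPKM.

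Vinculin was the member that differed most. Vcl (ENSMUSG00000021823.10, GRCm38 chromosome 14, 20929398 to 21033676, plus strand) was at 188 FPKM in control cells, 142 FPKM in the NELL2 library and 70.5 FPKM in the knockdown library. The control was the highest and the knockdown library the lowest. The log2 ratio was -1.40 after knockdown (counting error 0.018) and -0.40 with NELL2 overexpression (counting error 0.014), or 37.5% and 75.7% of the control level. The partners of vinculin at the integrin tail differed far less. Tln1 was at 90.8, 87.5 and 87.8 FPKM, Tln2 at 13.5, 13.2 and 11.6 FPKM and Fermt2 at 97.0, 90.7 and 96.7 FPKM. The ratio of Vcl to Tln1 within a library was therefore 2.07 in control cells, 1.63 in the NELL2 library and 0.803 in the knockdown library.

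The Vcl value may depend on how reads were divided between genes, which was not tested. The annotation holds 2090 exon bases that Vcl shares with Ap3m1, a gene of the opposite strand that encodes an adaptor subunit for vesicle sorting, and whether strand was used in counting is not clear from the methods. Ap3m1 went the other way, at 19.9, 42.0 and 38.1 FPKM. The summed estimated fragments of both genes, scaled to the depth of the control, were at 80.4% (NELL2) and 42.8% (knockdown) of the control, or at 91.9% and 55.9% when the longest coding transcript of each gene was used. The sum was thus below the control after knockdown with either length, and with the longest transcripts it was less than 2-fold below. With NELL2 overexpression the sum was nearer the control than Vcl alone (75.7%) with either length. The log2 ratio of Ap3m1 was 1.04 with NELL2 overexpression, past 2-fold, and 0.90 after knockdown. Ap3m1 was examined after the values of Vcl had been seen. Exons of 9 members overlap a gene of the opposite strand, and those of 1 member, Pdlim7, overlap a microRNA gene on the same strand.

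The complex of integrin-linked kinase (ILK), PINCH and parvin held 1 called member after Fn1 knockdown, Lims1, and 5 members that were not called. In this complex Ilk is a pseudokinase that binds the integrin tail region, PINCH and parvin hold it on either side, and Rsu1 binds PINCH. Lims1 (ENSMUSG00000019920.17, GRCm38 chromosome 10, 58323466 to 58424691, plus strand) was at 55.7 FPKM in control cells, 59.0 FPKM in the NELL2 library and 27.2 FPKM in the knockdown library. Only the knockdown library was set apart, with a log2 ratio of -1.01 (counting error 0.055), close to the 2-fold cutoff. With NELL2 overexpression the ratio was 0.083 (counting error 0.045).

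Of the other 5 members of the complex none was called after Fn1 knockdown. The log2 ratios of 4 of them were above 0 by more than the counting error, and that of Lims2, at 0.11, was within its counting error of 0.16. Rsu1 had the highest log2 ratio of the 42 members there, at 0.44 (counting error 0.041), with 60.4 FPKM in control cells, 64.3 FPKM in the NELL2 library and 82.4 FPKM in the knockdown library. Parvb (beta-parvin) was at 6.42, 6.14 and 8.37 FPKM, with a log2 ratio of 0.34 after knockdown. Parva (alpha-parvin) was at 71.5, 81.7 and 83.6 FPKM and Ilk at 83.5, 82.5 and 94.7 FPKM. Relative to Ilk, Lims1 was at 0.667 in control cells, 0.715 in the NELL2 library and 0.288 in the knockdown library, whereas Parva was at 0.856, 0.991 and 0.882 and Rsu1 at 0.723, 0.780 and 0.870. The ratio of Rsu1 to Lims1, whose proteins bind each other, was 1.08, 1.09 and 3.03.

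**Figure D3:**
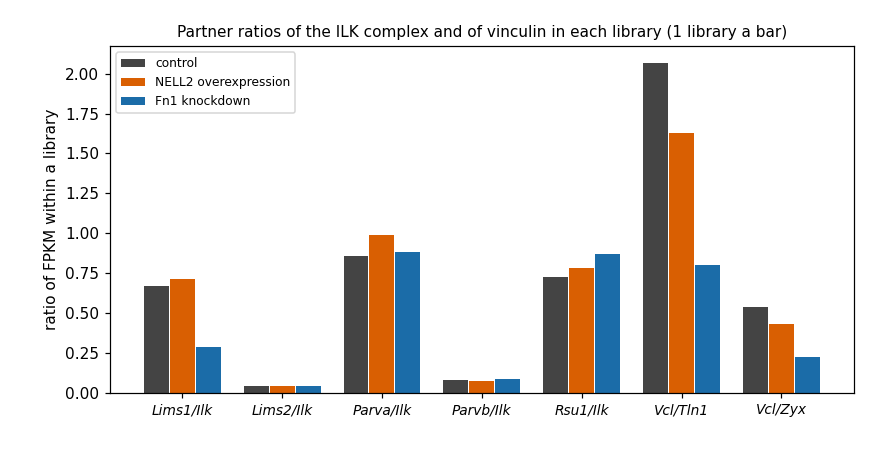
Ratio of the FPKM of a gene to that of its partner within each library, with 1 bar for each of the 3 libraries and the axis starting at 0. After Fn1 knockdown Lims1/Ilk was 0.288 against 0.667 in the control and Vcl/Tln1 was 0.803 against 2.07, while Parva/Ilk and Rsu1/Ilk stayed near or above the control.

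The zyxin family and the Ena/VASP proteins, which guide actin polymerization at the adhesion, were close to the control. Zyx was at 350.4, 328 and 315 FPKM in the control, NELL2 and knockdown libraries. Its relatives Trip6 and Lpp were at 22.1, 21.9 and 20.7 FPKM and at 15.9, 13.8 and 15.1 FPKM. Vasp was at 46.5, 45.5 and 50.8 FPKM and Enah at 20.6, 20.98 and 20.8 FPKM. All 5 genes stayed within 0.25 of the control in both comparisons. Vcl and Zyx, the members of highest level, were at a ratio of 0.536 in the control and 0.223 after knockdown.

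Among the tensins, which tie integrin tails to actin in mature adhesions, Tns3 held the larger share, at 81.2, 85.1 and 79.1 FPKM. Tns1 was at 25.3, 23.7 and 19.8 FPKM and Tns2 at 20.8, 20.8 and 17.2 FPKM. Both were lower after Fn1 knockdown, with log2 ratios of -0.34 and -0.26, and near the control with NELL2 overexpression.

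Git2 was the member that differed most with NELL2 overexpression. The GIT proteins carry the exchange factor beta-PIX (Arhgef7) and the kinase PAK to adhesions and favour their turnover. Git2 was at 19.4 FPKM in control cells, 12.2 FPKM in the NELL2 library and 19.6 FPKM in the knockdown library, so the NELL2 library alone was low. Its log2 ratio there was -0.63 (counting error 0.049), which passed 1.5-fold and not 2-fold. With a pseudocount of 5 FPKM it was -0.50, which is less than 1.5-fold. The paralog Git1 was at 25.9, 27.1 and 27.8 FPKM, and the ratio of Git2 to Git1 was 0.750, 0.451 and 0.703. Arhgef7 was at 17.3, 17.8 and 18.2 FPKM, Pak1 at 21.4, 19.8 and 20.1 FPKM and Pak2 at 24.4, 23.6 and 21.5 FPKM.

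The caveolins, membrane proteins that shape caveolae and influence Src and integrin turnover, had log2 ratios below 0 without reaching 1.5-fold. With NELL2 overexpression these were -0.23 (Cav1) and -0.11 (Cav2), with a counting error of 0.10 each, so that of Cav2 was about the size of its error. Cav1 was at 19.2, 16.3 and 15.2 FPKM, and Cav2 at 18.6, 17.1 and 12.6 FPKM, the latter with a log2 ratio of -0.52 (counting error 0.11) after Fn1 knockdown. Cav2 was the third lowest member in that comparison, and it did not reach 1.5-fold. The PDZ and LIM scaffolds and vinexin had log2 ratios below 0 in both comparisons, and none reached 1.5-fold. Pdlim7 was at 70.7, 50.3 and 49.9 FPKM, with log2 ratios of -0.48 and -0.50 (counting error 0.047 each), so that it was almost equal in the treated libraries and higher in the control. Pdlim5 was at 89.5, 72.1 and 83.6 FPKM. Sorbs3 (vinexin, a binding partner of vinculin) was at 17.2, 15.2 and 12.2 FPKM, with a log2 ratio of -0.46 after knockdown.

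**Figure D4:**
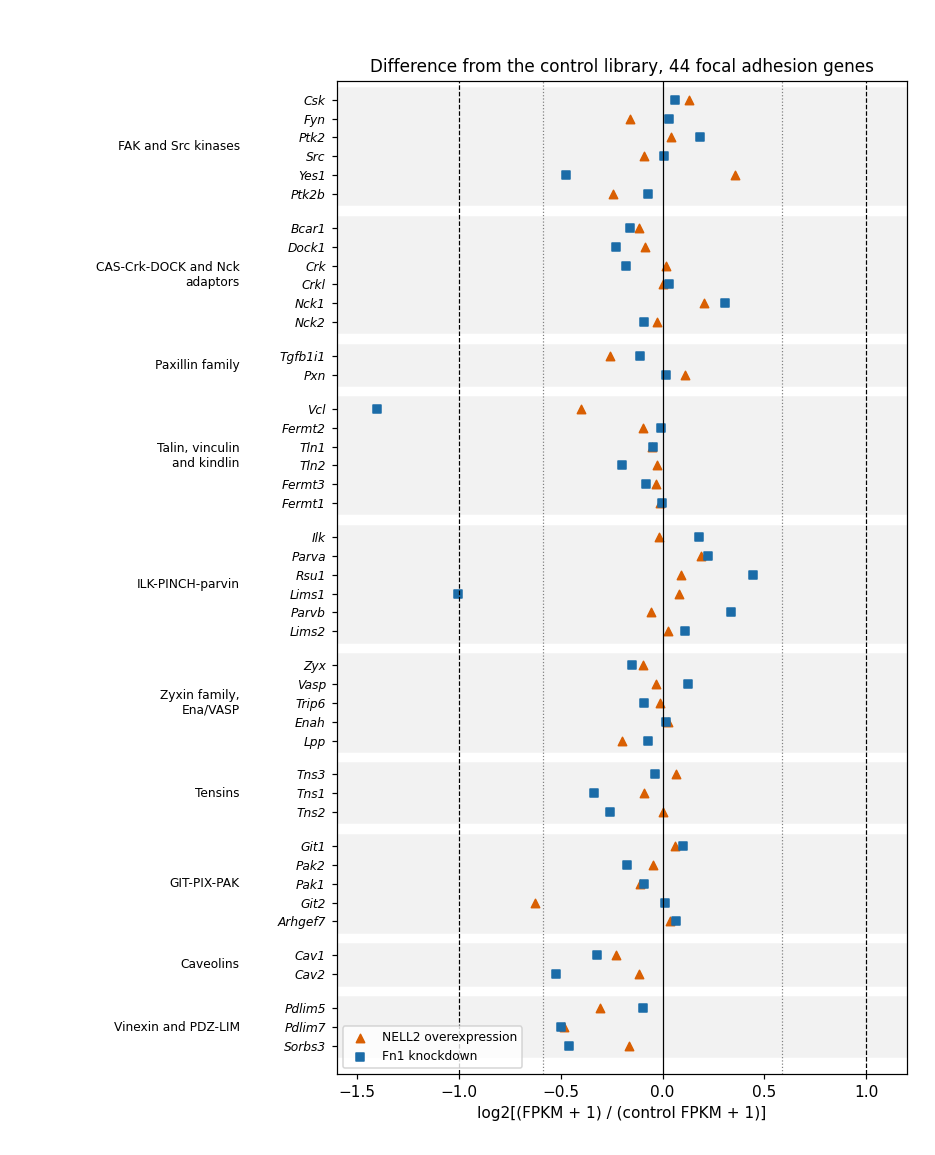
Log2 ratio to the control for each of the 44 genes, with triangles for NELL2 overexpression and squares for Fn1 knockdown, dashed lines at 2-fold and dotted lines at 1.5-fold. Vcl (-1.40) and Lims1 (-1.01) are the squares at or beyond the dashed line, Git2 (-0.63) is the triangle beyond the dotted line, and Yes1 lies on opposite sides of 0 (0.36 and -0.47).

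Summed over the 44 genes, the level was 1880.2 FPKM in control cells, 1755 FPKM in the NELL2 library and 1681 FPKM in the knockdown library. The knockdown sum was at 89.4% of the control, and at 95.2% without Vcl. By role, the kinases were at 101% (NELL2) and 103% (knockdown) of the control, and the ILK, PINCH and parvin group was at 106% and 107%. The group of talin, vinculin and kindlin was at 85.7% and 68.5%, and at 95.1% and 97.4% without Vcl. The caveolins were at 88.3% and 73.6%, and vinexin with the PDZ and LIM scaffolds at 77.6% and 82.1%.

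Other genes of the adhesion site served as a comparison, in lists chosen with earlier results of these data known. Of 46 further actin linkers, small GTPases and regulators, 44 reached 1 FPKM. None was called with NELL2 overexpression (17 higher and 27 lower, median -0.037), and 1 was called after Fn1 knockdown (15 higher and 29 lower, median -0.088), or 2.27% beside 1.23% of all genes. The called gene was Rac1, the GTPase that drives lamellipodia and acts downstream of Dock1, at 123 FPKM in control cells, 117 FPKM in the NELL2 library and 45.6 FPKM in the knockdown library, a log2 ratio of -1.41. Grb2, an adaptor that couples FAK and receptor kinases to Ras, was at 19.97, 21.1 and 38.1 FPKM, a log2 ratio of 0.90 after knockdown that passed 1.5-fold only; it was named after its value was seen. Of 26 integrin subunits, 14 reached 1 FPKM and none was called, although Itgav (21.3, 21.9 and 33.5 FPKM) passed 1.5-fold after knockdown, with a log2 ratio of 0.63. The shares past 1.5-fold after knockdown, 4.55% of the 44 adhesion-site genes and 7.14% of the 14 integrin subunits, were near the 6.24% of all genes. The median of the integrin subunits was 0.20 after Fn1 knockdown (10 higher and 4 lower), whereas that of the focal adhesion genes was -0.073, a difference that was not tested.

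Sequence features of the members were then described. RefSeq promoter windows (GRCm38.p6, 250 bases before to 50 bases after a start site) were at hand for 35 of the 44 genes. They were searched on both strands for the CArG box bound by serum response factor (CC, then 6 bases that are A or T, then GG), which is well known at genes of the actin cytoskeleton. It occurred in 4 of the 35 members (Vcl, Fermt2, Rsu1 and Trip6), or 11.4%, and in 1.81% of 27025 genes. Those genes were not filtered by level, and a gene counted if any of its windows held the motif. GGAATG, the core letters of a TEAD site, occurred in 5 members (14.3%, against 16.6% of genes), among them Vcl and Trip6, and TGANTCA, the letters of an AP-1 site, in Cav2 and Zyx (5.71%, against 8.97%). The Vcl window is shown whole because Vcl differed most, and 42 to 50 bases are shown for the other genes, with the CArG box in capitals and all sequences 5′ to 3′ on the strand of the gene. They lie at chr14:20929148-20929447 (Vcl, plus strand), chr14:45530240-45530289 (Fermt2, minus strand), chr2:13271366-13271407 (Rsu1, minus strand) and chr5:137314211-137314260 (Trip6, minus strand).
Vcl: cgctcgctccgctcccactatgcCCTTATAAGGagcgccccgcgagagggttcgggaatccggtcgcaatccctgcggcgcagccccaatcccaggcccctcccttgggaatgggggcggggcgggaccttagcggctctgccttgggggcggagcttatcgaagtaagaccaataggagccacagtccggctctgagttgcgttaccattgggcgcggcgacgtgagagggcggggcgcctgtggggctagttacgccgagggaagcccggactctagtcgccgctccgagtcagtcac
Fermt2: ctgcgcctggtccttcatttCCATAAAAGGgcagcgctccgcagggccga
Rsu1: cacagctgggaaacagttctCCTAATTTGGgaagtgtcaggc
Trip6: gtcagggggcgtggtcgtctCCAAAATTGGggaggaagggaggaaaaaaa

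The 4 genes with the box did not move together. Vcl fell after Fn1 knockdown (-1.40), whereas Rsu1 was higher (0.44), Fermt2 was level (-0.005) and Trip6 was at -0.092. Counted from the start site, the box in the Vcl window begins at position -227 and GGAATG at position -143, so they do not overlap. A match of letters is a description and does not show that a factor was bound.

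The 3′ UTRs of the members were searched for AAGTATGA, a word of 8 bases that an earlier look at these same libraries had connected with lower levels after Fn1 knockdown, so that its relation to that comparison is not independent. It was present in the 3′ UTR of 4 of the 42 members (9.52%) and of 2.75% of 11138 genes scanned. These members were Vcl (-1.40 after knockdown), Yes1 (-0.47), Crk (-0.18) and Enah (0.015), so the genes with the word ranged from the largest fall among the members to no difference. The only coding transcript of Vcl held it in the 3′ UTR, as did 1 of 3 for Yes1, 1 of 5 for Crk and 1 of 8 for Enah. The values are per gene, and which of these transcripts the cells held was not tested. Of the 44 genes, 8 held the first 7 or the last 7 bases in a 3′ UTR but not the whole word, namely Lims1 (both), Nck1, Pak2, Pdlim7 and Fermt1 (first 7), and Tgfb1i1, Lpp and Cav2 (last 7). Apart from Fermt1, which was under 1 FPKM, their ratios after knockdown went from -1.01 (Lims1) to 0.30 (Nck1), and the share of all genes with such a part was not computed. Ptk2b (-0.072) and Fermt2 (-0.005) held the word in a coding transcript outside the 3′ UTR. The median log2 ratio after knockdown was -0.15 over the 306 genes with the word and -0.003 over those without it, and with NELL2 overexpression these medians were 0.016 and 0.006. The word also occurs ahead of the stop codon of Fn1, in 7 of its 8 coding transcripts, as it does somewhere in a coding transcript of 7.29% of 11220 genes. The sequences of the Fn1 siRNAs were not used here, and a part of the word in these values was not tested.

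The sites are printed to let them be compared, with the word in capitals and 10 bases on either side, as GENCODE M21 (GRCm38) gives them on the strand of the gene. They lie at chr14:21033374-21033401 (Vcl, plus strand), chr5:32685898-32685925 (Yes1, plus strand), chr11:75706215-75706242 (Crk, plus strand), chr1:181900698-181900725 (Enah, minus strand) and chr1:71599276-71599303 (Fn1, minus strand, coding region).
Vcl: aatgcctttaAAGTATGAatctatgcca
Yes1: aaaagttttaAAGTATGAttgtaaaact
Crk: gatctctagaAAGTATGAcactactgtt
Enah: aaaattgttgAAGTATGAactatgttaa
Fn1: ctacattatcAAGTATGAgaagcctgga

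None of the printed member sites matched that of Fn1 over more than the 8 bases of the word. The sites of Ptk2b and Fermt2 outside the 3′ UTR were not compared. The Vcl site lies in the last exon of Vcl, which is also the stretch where the Ap3m1 exons overlap it.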

How the data were processed

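Polyadenylated RNA of 3 ST2 libraries was sequenced from both ends (MGISEQ-2000), and the authors mapped reads to mouse transcripts with HISAT2; the submitters' processing notes name GRCm38 and DESeq. The authors deposited FPKM per gene for each library. The program behind FPKM and its annotation are not given in the sources used here. The methods mention a strand step in alignment and filtering, but not whether strand was used in counting. No column of another series was present. Members, lists and cutoffs were chosen with earlier results of these data known.

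Here, log2((FPKM + 1)/(control FPKM + 1)) was computed for all 51826 rows with Python 3.11.15, numpy 2.4.6 and pandas 2.3.3. A gene was called at 2-fold with 1 FPKM or more in at least 1 of the compared libraries. The computation was checked on simulated data, which gives no rate of false calls. With 1 library a group and no counts, no test was run. Depth was estimated from low FPKM values times length, using genes with a single transcript of at least 600 bases; 22.0% to 23.0% of low values lay within 0.02 of a whole fragment, so whole reads were not recovered. Fragments per member used the median length of its coding transcripts in the GENCODE M21 basic set (GRCm38), and counting errors were computed from them. Named with all values were members called or past 1.5-fold, the 3 highest and 3 lowest ratios of each comparison, the 5 highest levels, members under 1 FPKM and paralogs side by side. Alternatives changed the pseudocount, the filter, the cutoff and the scaling.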

Additional observations from a re-analysis of the deposited data

How the results depend on the processing

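The count of members called with NELL2 overexpression was 0 in every setting except the 1.5-fold cutoff, where it was 1 (Git2). That cutoff was run with a pseudocount of 1 FPKM only. With a pseudocount of 5 FPKM the log2 ratio of Git2 was -0.50, which is less than 1.5-fold. The count after Fn1 knockdown was 2 except with a pseudocount of 5 FPKM, where it was 1, because Lims1 then had a log2 ratio of -0.91; Lims1 lies at the edge of the cutoff. The median of the members ranged from -0.048 to -0.031 with NELL2 overexpression and from -0.084 to -0.052 after Fn1 knockdown over the pseudocounts (0.1, 1 and 5 FPKM), filters (none, 0.1, 1 and 5 FPKM), median-of-ratios scaling and, chosen after seeing the data, the removal of Pdlim7, which overlaps another gene on the same strand. The filters and the removal of Pdlim7 leave the ratio of a single gene as it is, so they bear only on counts and medians. Under the other pseudocounts and the scaling, Lims1 was the only gene among the members, Nell2, Fn1 and Rac1 to change its side of 2-fold. Ap3m1, Grb2 and Itgav were not run in these settings, and Ap3m1 (1.04 with NELL2 overexpression) lies close to the cutoff. The scaling factors lay between 0.998 and 1.0045, so that setting tests little. No paired analysis was possible because the labels give a single library per condition, which also means that none could be left out. Depth limits Lims2, at 150 to 175 estimated fragments, and leaves Fermt1 and Fermt3 unread.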
